A study of Homo sapiens with 8 samples.

Results

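The enzymes that phosphorylate the translation initiation factor eIF2 and those that remove the phosphate were followed as a group of 10 genes: the kinases EIF2AK1, EIF2AK2, EIF2AK3 and EIF2AK4, the kinase inhibitor IMPACT, the phosphatase targeting subunits PPP1R15A and PPP1R15B, and the protein phosphatase 1 (PP1) catalytic subunits PPP1CA, PPP1CB and PPP1CC. The genes were taken by symbol, and all 10 were found among the 12235 genes listed in at least 1 of the 8 libraries. Footprints of ribosomes on mRNA, the short fragments that a ribosome shields from nuclease, had been sequenced from wild-type HEK293T cells, a line derived from human embryonic kidney that makes the large T antigen of SV40. Cells were starved overnight in medium without arginine (Arg-), leucine (Leu-) or methionine (Met-), and control cells (Suff) received the same medium, with dialysed serum, to which all of these amino acids had been returned. For each of the 4 media, 1 library came from cells pre-treated with cycloheximide (CHX), which stops elongating ribosomes, and 1 from cells without it. With 1 library per condition there was no replicate of any condition, no test was run, and every interval given is a 95% interval for the counting of reads alone, which does not cover PCR copies or the variation between cultures.

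PPP1R15A stood apart from the other members in all 3 deficiencies without CHX. Its footprint density was 3.15 RPKM (reads per kilobase of coding sequence, scaled to the reads of the library) in Suff and 31.3, 17.2 and 21.6 RPKM in Arg-, Leu- and Met-. The kinases stayed within 2-fold of Suff in the same comparisons. PPP1R15B, which has upstream reading frames as PPP1R15A does, was at 0.70-fold of Suff in Met- and within its counting interval of Suff in Arg- and Leu-. Among the PP1 catalytic subunits, PPP1CC was at 0.43-fold of Suff in Arg- without CHX. With CHX the contrast of PPP1R15A with the kinases could not be made in full, since Suff did not list PPP1R15A, EIF2AK2 or EIF2AK3.

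As background, each kinase answers its own signal: EIF2AK1 (HRI) responds to a lack of heme and to mitochondrial stress, EIF2AK2 (PKR) to double-stranded RNA, EIF2AK3 (PERK) to unfolded proteins in the endoplasmic reticulum and EIF2AK4 (GCN2) to uncharged tRNA. All phosphorylate the alpha subunit of eIF2, which then blocks the exchange factor eIF2B, so that less initiator tRNA reaches the ribosome and most initiation slows, while mRNAs with certain upstream open reading frames, such as ATF4, are translated better. PP1 removes the phosphate when PPP1R15A (GADD34), which is made during stress, or PPP1R15B (CReP), which is made constitutively, brings a catalytic subunit to eIF2. A footprint density combines the amount of an mRNA with the ribosomes on each copy, and without RNA measurements these cannot be told apart, nor does it show phosphorylation or enzyme activity.

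The libraries held 538222 to 6434043 reads on coding sequences with CHX and 1302523 to 3139745 without it. The files listed an mRNA only down to 64 reads with CHX and 5 reads without it, so an mRNA that was not listed is given here as below the level that this number of reads would give. All 10 members were listed in the 4 libraries without CHX and in Arg- and Leu- with CHX, against 7 in Suff and 4 in Met- with CHX. The last library was the shallowest and listed 2021 genes, and its median log2 ratio to Suff over genes listed in both, with a mean of at least 10 RPKM, was 0.89. The same median was -0.23 for Arg- and 0.02 for Leu- with CHX, and -0.02, 0.14 and 0.32 for Arg-, Leu- and Met- without CHX. In Met- with CHX, genes low in Suff reached 64 reads, and so had a ratio, only where they were high in Met-. Its median of 0.89 thus came from genes selected in part for a high level there, and centring on it is not a neutral correction. With CHX the SD of the log2 ratio over genes was 1.05 for Arg- against Suff and 0.79 for Leu- against Suff, but 0.59 for Leu- against Arg-, so the Suff library with CHX lay further from these 2 starved libraries than they lay from each other. The same order held without CHX, where these SDs were 0.71, 0.58 and 0.48. All 6 genes chosen as marks of the line, among them VIM and NEFM, were listed in each library without CHX, with a summed level of 407 to 813 RPKM, and 3, 5, 5 and 2 of them in Suff, Arg-, Leu- and Met- with CHX.

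**Figure D1:**
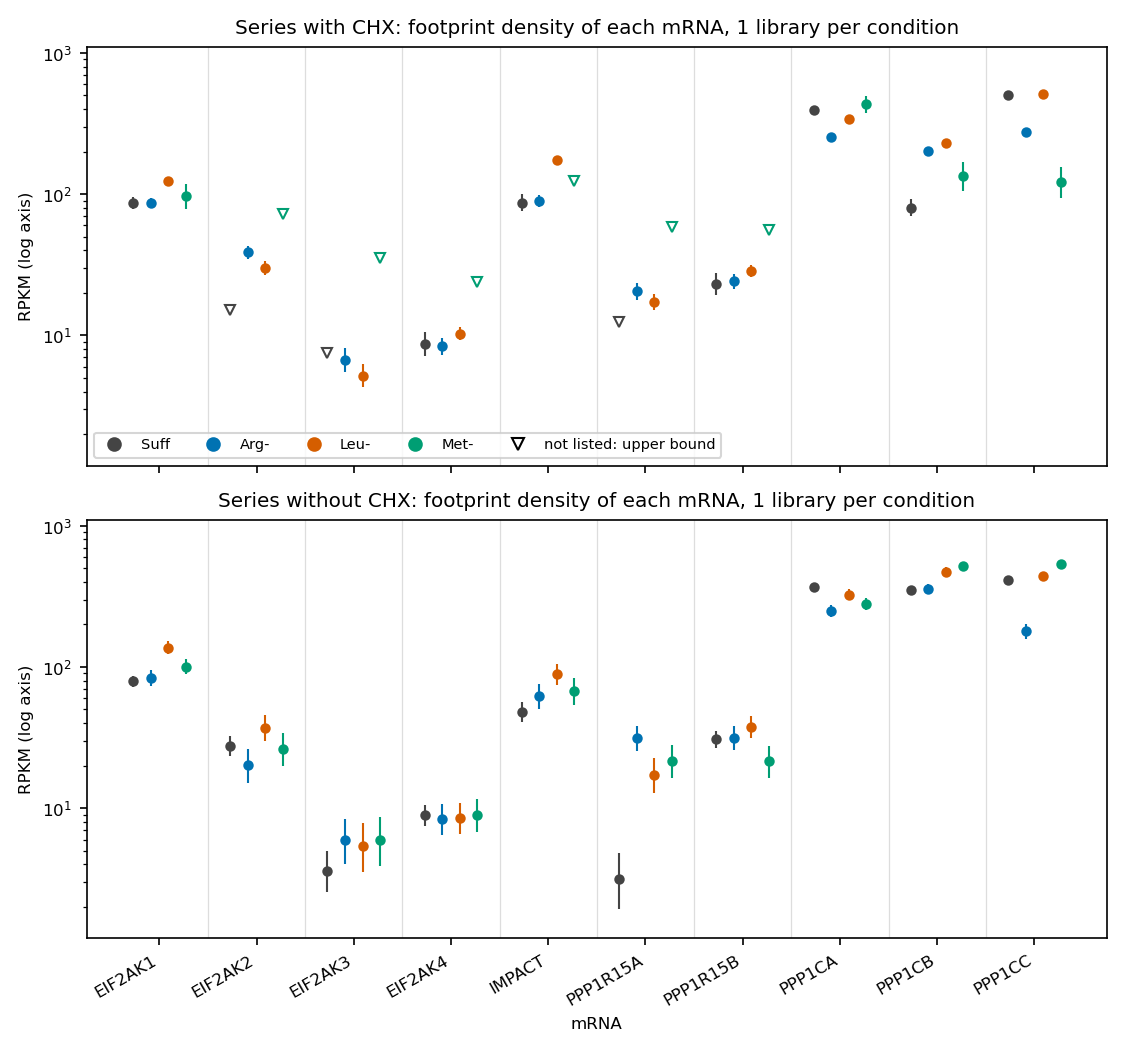
Footprint density (RPKM, log axis) of the 10 mRNAs in each library, with CHX (top) and without it (bottom). Points are single libraries, bars the 95% counting intervals and open triangles the level below which an mRNA that was not listed must lie. PPP1R15A without CHX was at 3.15 RPKM in Suff and between 17.2 and 31.3 RPKM in the starved libraries.

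In Suff without CHX the levels, which are per length and can be set against each other within a library, ran from 414 RPKM for PPP1CC to 3.15 RPKM for PPP1R15A. PPP1CC, PPP1CA at 371 and PPP1CB at 351 RPKM formed the top, with each interval overlapping that of its neighbour. EIF2AK1 at 79.4, IMPACT at 48.3 and PPP1R15B at 30.8 RPKM followed, each apart from the one above it. EIF2AK2 at 27.7 RPKM overlapped PPP1R15B, EIF2AK4 stood alone at 8.94 RPKM, and the lowest pair, EIF2AK3 at 3.61 RPKM and PPP1R15A, overlapped. In Arg- without CHX PPP1R15A had moved above EIF2AK2 (20.2 RPKM, intervals overlapping), EIF2AK4 and EIF2AK3, and at 31.3 RPKM it lay beside PPP1R15B at 31.6 RPKM.

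EIF2AK1, on the minus strand of chr7:6022247-6059175 (GRCh38, GENCODE release 44, as for all positions here), carried most of the kinase footprints, with 66.4% to 72.9% of the summed RPKM of the 4 kinases in the libraries without CHX. Its level without CHX was 79.4 RPKM in Suff, 83.6 in Arg-, 137 in Leu- and 101 in Met-. The levels with CHX were 86.8 RPKM in Suff, 87.0 in Arg-, 124 in Leu- and 96.3 in Met-. Leu- was thus the highest library in both series. The fold over Suff in Leu- was 1.73 (1.51 to 1.98) without CHX and 1.43 (1.28 to 1.60) with it, while Arg- was at 1.05-fold (0.90 to 1.23) and 1.0-fold (0.89 to 1.13). In Met- the fold was 1.27 (1.08 to 1.48) without CHX and 1.11 (0.88 to 1.39) with it, and the latter turned to a log2 ratio of -0.74 when ratios were centred on the median over all genes. Of the 30-base windows of the EIF2AK1 coding sequence, 6.01% also occur in RNA of the locus EIF2AK1P1. Reads there would not map uniquely to a transcriptome that holds it.

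EIF2AK2, the kinase activated by double-stranded RNA, lies on the minus strand of chr2:37099210-37157522. Without CHX its level was 27.7 RPKM in Suff, 20.2 in Arg-, 37.1 in Leu- and 26.4 in Met-. The only fold over Suff whose interval left out 1 was that in Leu-, at 1.34 (1.02 to 1.75). In the CHX series it was listed at 38.8 RPKM in Arg- and 29.9 in Leu-, and was not listed in Suff (below 15.1 RPKM) or Met- (below 71.9 RPKM). This made it at least 2.56-fold higher in Arg- than in Suff with CHX, whereas without CHX the same ratio was 0.73 (0.52 to 1.01). The starved libraries set directly against each other also gave opposite orders, Leu- over Arg- being 1.83 (1.30 to 2.62) without CHX and 0.77 (0.66 to 0.90) with it.

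EIF2AK3, the kinase of the endoplasmic reticulum, lies on the minus strand of chr2:88556741-88691518 and had few reads. Without CHX its level was 3.61 RPKM in Suff, 5.93 in Arg-, 5.38 in Leu- and 5.96 in Met-, from 38, 32, 27 and 26 reads. The 3 starved libraries lay above Suff, but every interval of the ratio held 1, from 0.99 to 2.70 in Arg-, 0.88 to 2.51 in Leu- and 0.96 to 2.79 in Met-, so a difference was not detectable at this depth. The CHX libraries listed it at 6.74 RPKM in Arg- and 5.20 in Leu-, under the 7.47 RPKM that a listing in Suff required.

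EIF2AK4, the sensor of uncharged tRNA and hence of amino acid shortage, lies on the plus strand of chr15:39934115-40035591. Its footprint density without CHX was 8.94 RPKM in Suff, 8.40 in Arg-, 8.50 in Leu- and 9.00 in Met-, the narrowest range of the 10 members. The folds over Suff were 0.94 (0.69 to 1.27), 0.95 (0.69 to 1.29) and 1.01 (0.73 to 1.38). Each interval held 1, and they cover counting error alone, so they do not bound differences between cultures. With CHX it was at 8.76 RPKM in Suff, 8.35 in Arg- and 10.3 in Leu-, with folds of 0.95 (0.75 to 1.21) and 1.18 (0.95 to 1.47). The sign of the small log2 ratios in Arg- with CHX (-0.06) and in Met- without CHX (0.01) changed on centring, to 0.17 and -0.31.

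IMPACT, which competes with EIF2AK4 for its activator GCN1, lies on the plus strand of chr18:24426634-24453531. Without CHX its level was 48.3 RPKM in Suff, 61.9 in Arg-, 88.8 in Leu- and 67.8 in Met-. In the CHX series it was at 87.1 RPKM in Suff, 89.8 in Arg- and 174 in Leu-, and below 124 RPKM in Met-, where it was not listed. Like EIF2AK1, it was highest in Leu- in both series. Leu- over Suff was 1.84 (1.44 to 2.35) without CHX and 2.0 (1.72 to 2.33) with it, the latter a log2 ratio of 0.99 and so just short of 2-fold on the log2(RPKM + 1) scale. Leu- was also above Arg- directly, by 1.43-fold (1.09 to 1.89) without CHX and 1.94-fold (1.73 to 2.17) with it. Met- over Leu- without CHX was 0.76 (0.57 to 1.01), whose interval holds 1. Of the 960 bases of its coding sequence, 7.82% of the 30-base windows also occur in RNAs of other loci, so reads there would not map uniquely.

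PPP1R15A and PPP1R15B are the members known for upstream open reading frames (uORFs) that hold back translation of the main frame in unstressed cells. Their start sites are printed because the comparison of these mRNAs with the kinases rests on this feature. Each sequence is read from the reference transcript, 5′ to 3′ with 12 bases before and 15 after the start codon, which is in capitals.
PPP1R15A uORF1, chr19:48872443-48872472, plus strand: gttgttgatcttATGcaagacgctgcacga
PPP1R15A uORF2, chr19:48872542-48872571, plus strand: cctgagggtgagATGaacgcgctggcctcc
PPP1R15B uORF1, chr1:204411673-204411702, minus strand: ggactcctatccATGgtgttgaagcgtcga
PPP1R15B uORF2, chr1:204411625-204411654, minus strand: ttccccgccaggATGgaagtcgcatcagtc
All 4 sites lie in exon 1, in the 5′ leader, which has 240 bases in PPP1R15A and 406 in PPP1R15B. The uORFs of PPP1R15A hold 22 and 26 codons and begin 206 and 107 bases before the main start codon. Those of PPP1R15B hold 8 and 51 codons and begin 279 and 231 bases before it.

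Upstream start codons also occur in the leaders of 2 kinases and in none of the other members. EIF2AK2 has a uORF of 5 codons that begins 138 bases before the main start codon. EIF2AK3 has a start codon whose frame of 8 codons ends in a stop codon that overlaps the first base of the main start codon. Both are shown for contrast.
EIF2AK2 uORF, chr2:37148961-37148990, minus strand: ttgtaaattgtaATGacctcaaaactttag
EIF2AK3 upstream start, chr2:88627283-88627312, minus strand: ggctgcgcctccATGcctgcgcgcggggcg
An upstream start codon is common: of the 11042 genes listed in Suff without CHX that have an annotated leader, 45.2% have at least 1 in the leader and 25.9% have at least 2. Among genes with a mean of at least 10 RPKM, those with 2 of them, the number in both PPP1R15A and PPP1R15B, had median log2 ratios to Suff of -0.02 in Arg-, 0.23 in Leu- and 0.48 in Met- without CHX, beside -0.02, 0.11 and 0.20 for genes with none. The letters of a leader do not show which start codon was used, and positions of footprints along the mRNA were not analysed here.

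PPP1R15A (plus strand of chr19:48872212-48876059), the stress-induced subunit, had 20 reads in Suff, 102 in Arg-, 52 in Leu- and 57 in Met- without CHX. These gave 3.15 RPKM (1.92 to 4.86) in Suff, 31.3 (25.5 to 38.0) in Arg-, 17.2 (12.8 to 22.5) in Leu- and 21.6 (16.4 to 28.0) in Met-. The 3 starved libraries all lay above Suff, and none of their intervals reached that of Suff. The fold over Suff was 9.94 (6.11 to 17.0) in Arg-, 5.45 (3.20 to 9.64) in Leu- and 6.87 (4.06 to 12.1) in Met-. On the log2(RPKM + 1) scale the ratios were 2.96, 2.13 and 2.45, and with no filter on low values they lay at the 99.9, 99.7 and 99.5 percentiles of the genes listed in both libraries. The depth of Suff sets the width of these intervals, since only 20 reads stand behind the denominator that the 3 folds share.

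Among the starved libraries without CHX, PPP1R15A was highest in Arg-. Leu- was at 0.55-fold (0.39 to 0.77) and Met- at 0.69-fold (0.49 to 0.96) of Arg-, while Met- over Leu- was 1.26 (0.85 to 1.87), whose interval holds 1. With CHX it was listed at 20.6 RPKM in Arg- and 17.4 in Leu-, from 209 and 226 reads. It was not listed in Suff with CHX, where it must have been below 12.4 RPKM, so that it was at least 1.67-fold higher in Arg- and at least 1.41-fold higher in Leu-. Leu- over Arg- with CHX was 0.84 (0.69 to 1.02). In Met- with CHX it was not listed, and a level of up to 58.8 RPKM would have gone unlisted there.

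PPP1R15B (minus strand of chr1:204396492-204411887), the constitutive subunit, had a level without CHX of 30.8 RPKM in Suff, 31.6 in Arg-, 37.7 in Leu- and 21.5 in Met-. In the CHX series it was at 23.2 RPKM in Suff, 24.2 in Arg- and 28.6 in Leu-, and it was not listed in Met- (below 55.6 RPKM). Without CHX the fold over Suff was 1.03 (0.81 to 1.30) in Arg- and 1.23 (0.97 to 1.54) in Leu-. Met- was the lowest library, at 0.70-fold (0.52 to 0.94) of Suff, 0.68-fold (0.49 to 0.94) of Arg- and 0.57-fold (0.41 to 0.78) of Leu-. With CHX Arg- was at 1.04-fold (0.84 to 1.30) and Leu- at 1.23-fold (1.01 to 1.52) of Suff. The share of PPP1R15A in the summed RPKM of both subunits was 9.27% in Suff, 49.7% in Arg-, 31.3% in Leu- and 50.1% in Met- without CHX.

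Set against the kinases of the same library pair, the log2 ratio of PPP1R15A without CHX exceeded the kinase median by 2.96 in Arg-, 1.69 in Leu- and 2.27 in Met-. The kinases spanned -0.43 to 0.59 in Arg-, -0.07 to 0.78 in Leu- and -0.07 to 0.59 in Met-, so PPP1R15A lay above the highest of the 4 in each deficiency. PPP1R15B minus the kinase median was 0.04, -0.15 and -0.67 in the same order, and it lay below all 4 kinases in Met- and among them in the others. With CHX only EIF2AK1 and EIF2AK4 had a ratio to Suff in Arg- and Leu-, and PPP1R15B minus their median was 0.09 and -0.07. EIF2AK2, which Suff with CHX did not list, was at least 2.56-fold higher in Arg- and at least 1.98-fold higher in Leu-. The bounds of PPP1R15A with CHX were lower, 1.67-fold and 1.41-fold, so it was not shown to exceed the kinases there. The coding sequences of PPP1R15A and PPP1R15B were identical at 42.8% of aligned positions and share no 30-base window, and neither shares one with another gene.

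**Figure D2:**
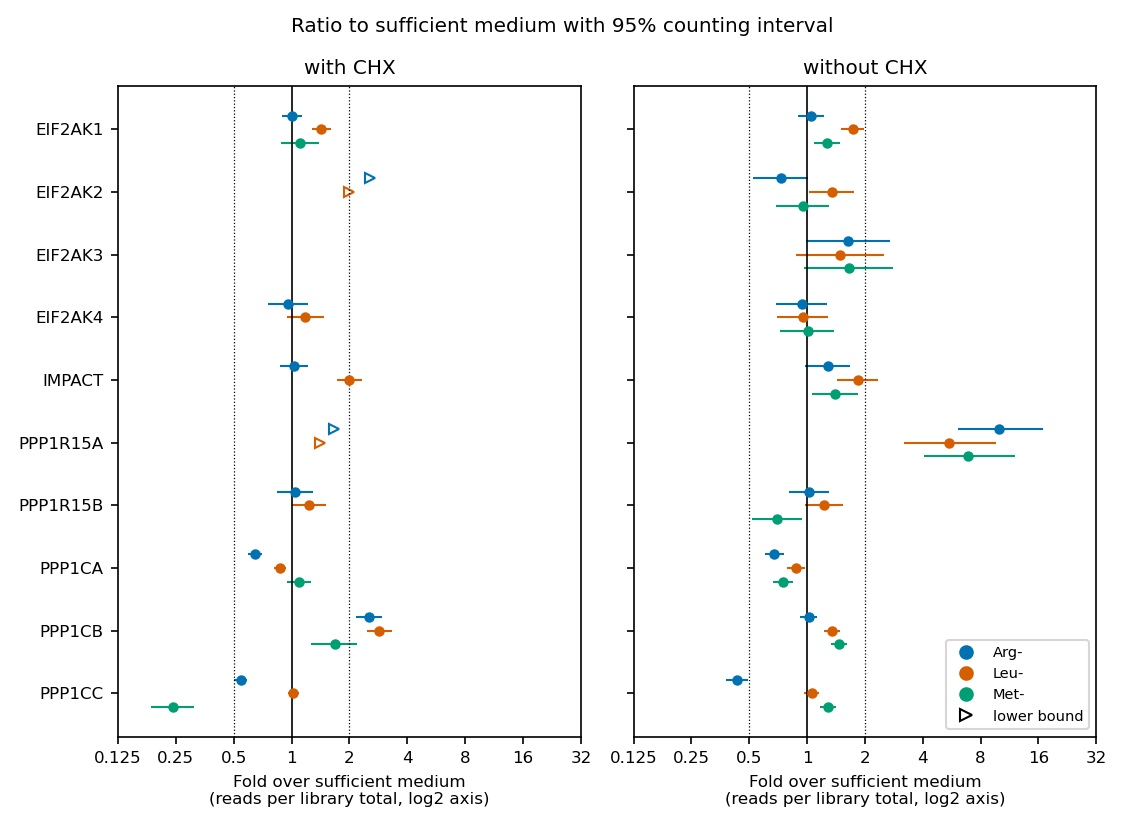
Fold over Suff (reads per library total, log2 axis) of each member in Arg-, Leu- and Met-, with CHX (left) and without it (right). Points are ratios of single libraries with their 95% counting intervals, open triangles are lower bounds where Suff did not list the mRNA, and dotted lines mark 2-fold; PPP1R15A lies at 5.45 to 9.94 on the right, and the kinases lie between 0.73 and 1.73.

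The catalytic subunits of PP1 serve many regulatory partners besides PPP1R15A and PPP1R15B. Their coding sequences are 69.5% to 73.2% identical to each other but share no 30-base window with one another, so their reads could be told apart. PPP1CA and PPP1CC were listed through different transcripts with and without CHX, so their levels are not set against each other between the series, and only their ratios within each series are.

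PPP1CA (minus strand of chr11:67398181-67421183) had a level of 371 RPKM in Suff, 249.9 in Arg-, 325 in Leu- and 279 in Met- without CHX. With CHX the levels were 394 RPKM in Suff, 252 in Arg-, 342 in Leu- and 432 in Met-. Arg- was the lowest library in both series, at 0.67-fold (0.60 to 0.75) of Suff without CHX and 0.64-fold (0.59 to 0.70) with it. Leu- lay nearer to Suff, at 0.88-fold (0.79 to 0.97) and 0.87-fold (0.80 to 0.94). In Met- the fold was 0.75 (0.67 to 0.85) without CHX and 1.10 (0.95 to 1.27) with it, where the log2 ratio of 0.13 turned to -0.76 on centring. Met- over Arg- without CHX was 1.12 (0.97 to 1.29), whose interval holds 1.

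PPP1CB (plus strand of chr2:28751640-28802940) had a level of 351 RPKM in Suff, 358 in Arg-, 472 in Leu- and 516 in Met- without CHX. With CHX the levels were 80.4 RPKM in Suff, 202 in Arg-, 229 in Leu- and 134 in Met-. The Suff library with CHX was thus low, and among members listed in both libraries the 2 ratios past 2-fold upward with CHX were those of PPP1CB. Arg- over Suff was 2.51 (2.16 to 2.94) with CHX but 1.02 (0.92 to 1.13) without it, and Leu- over Suff was 2.85 (2.46 to 3.32) with CHX and 1.34 (1.22 to 1.48) without it. Leu- over Arg-, which does not use Suff, was 1.13 (1.04 to 1.23) with CHX and 1.32 (1.18 to 1.48) without it. Met- over Suff was 1.47 (1.33 to 1.62) without CHX and 1.67 (1.26 to 2.20) with it, the latter turning from a log2 ratio of 0.73 to -0.15 on centring. Of its 30-base coding windows, 45.4% also occur in a non-coding transcript of the neighbouring gene SPDYA, so reads there would not map uniquely to a transcriptome that holds it.

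PPP1CC (minus strand of chr12:110719680-110742939) differed most among the 3 deficiencies without CHX. Its level there was 414 RPKM in Suff, 179 in Arg-, 437 in Leu- and 533 in Met-. Arg- was the low library, at 0.43-fold (0.38 to 0.49) of Suff, while Leu- was at 1.06-fold (0.96 to 1.16), a log2 ratio of 0.08 that turned to -0.06 on centring, and Met- at 1.29-fold (1.17 to 1.41). Leu- was 2.44-fold (2.13 to 2.81) and Met- 2.98-fold (2.60 to 3.43) above Arg-. With CHX the levels were 506 RPKM in Suff, 276 in Arg-, 515 in Leu- and 123 in Met-. Arg- was again low, at 0.54-fold (0.50 to 0.59) of Suff, and Leu- at 1.02-fold (0.95 to 1.09). Met- with CHX was at 0.24-fold (0.19 to 0.31), on 64 reads, the lowest number that the file lists, and so opposite to Met- without CHX.

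As shares of their summed RPKM without CHX, PPP1CA, PPP1CB and PPP1CC made up 32.6%, 30.9% and 36.4% in Suff. In Arg- they made up 31.8%, 45.5% and 22.7%, in Leu- 26.3%, 38.3% and 35.4%, and in Met- 21.0%, 38.8% and 40.1%. PPP1CB was the leading subunit in Arg- without CHX, apart from the next by its interval, while in Suff, Leu- and Met- without CHX the intervals of the highest pair overlapped. With CHX PPP1CB made up 8.20% in Suff and 19.5% to 27.7% in the starved libraries, and it did not lead in Arg-, where PPP1CC made up 37.8% and PPP1CA 34.6%.

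**Figure D3:**
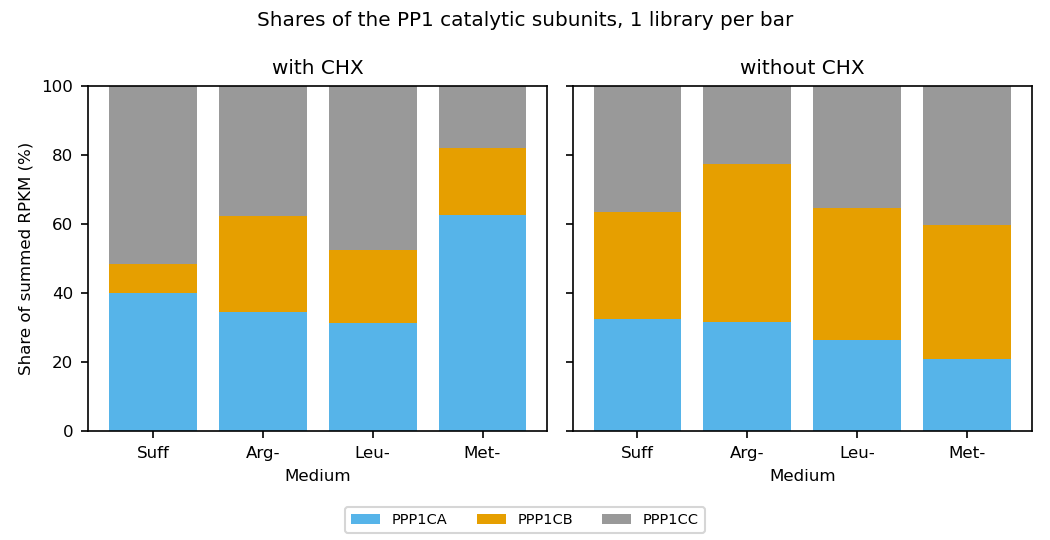
Share (%) of PPP1CA, PPP1CB and PPP1CC in their summed RPKM in each medium, with CHX (left) and without it (right), 1 library per bar. The PPP1CC share without CHX is 22.7% in Arg- and 35.4% to 40.1% in the other media, and the PPP1CB share with CHX is lowest in Suff at 8.20%.

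Counted over the members, 1 of 10 was at least 2-fold higher and 1 of 10 at least 2-fold lower in Arg- without CHX (PPP1R15A and PPP1CC), beside 8.23% and 5.95% of the 7448 genes listed in both libraries with a mean of at least 10 RPKM. In Leu- without CHX 1 of 10 was higher and 0 lower, beside 6.85% and 2.06% of 7558 genes, and in Met- without CHX 1 of 10 and 0, beside 20.2% and 5.34% of 7884 genes. With CHX 1 of 7 members was higher and 0 lower in Arg-, beside 16.6% and 19.7% of 5074 genes. In Leu- with CHX these numbers were 1 and 0 of 7, beside 12.1% and 7.28% of 5208 genes, and in Met- with CHX 0 and 1 of 4, beside 46.7% and 9.79% of 1890 genes. A count of 0 or 1 among 4 to 10 members does not set the group apart from these shares. The split of the calls over all genes moved with centring: the percentage of calls that were higher went from 45.7% to 63.4% in Arg- and from 82.7% to 47.5% in Met- with CHX, and from 76.9% to 56.5% in Leu- and from 79.1% to 50.2% in Met- without it.

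PPP1R15A passed the minimum of 10 RPKM only through the starved libraries, and EIF2AK3 and EIF2AK4 did not pass it, which left 8 of 10 members over it without CHX. The median log2 ratio of the members was 0.03 in Arg-, 0.42 in Leu- and 0.35 in Met- without CHX, beside -0.02, 0.14 and 0.32 over all genes. Of the 18 member ratios available in both series, 7 lay on the same side of 1 in both with neither interval holding 1. These were PPP1CA and PPP1CC lower in Arg-, EIF2AK1, IMPACT and PPP1CB higher and PPP1CA lower in Leu-, and PPP1CB higher in Met-, and PPP1CB in Met- changed sign on centring with CHX. The same count was not made over all genes, so 7 of 18 does not set the members apart from other genes. Counting intervals also leave out 1 more readily for mRNAs with many reads, such as those of the PP1 catalytic subunits. The series share no library, but they also differ in the removal of duplicate reads and in the fewest reads listed, so an effect of CHX cannot be told apart from these.

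**Figure D4:**
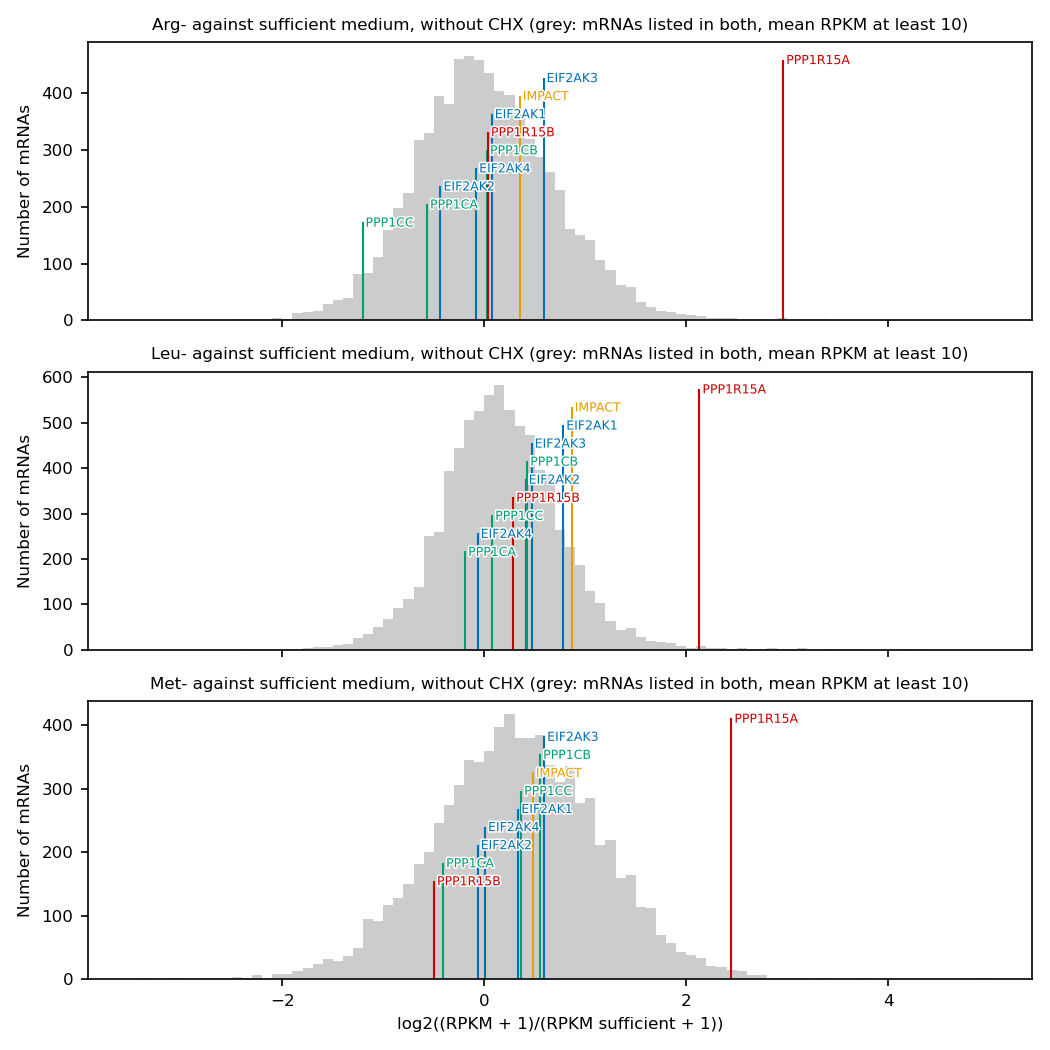
Log2 ratio to Suff without CHX of the members (coloured lines; line heights serve only to separate the labels) over the distribution of all genes listed in both libraries with a mean of at least 10 RPKM (grey bars, number of mRNAs). PPP1R15A lies at 2.96, 2.13 and 2.45 in Arg-, Leu- and Met-, and the other 9 members lie between -1.21 and 0.87.

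Around the members, the substrate and exchange factor of the pathway come first, and the shares of all genes past 2-fold given above (8.23%, 6.85% and 20.2% higher in Arg-, Leu- and Met- without CHX) stand beside every list. The shares lower, in the same order, were 5.95%, 2.06% and 5.34%. These shares are over genes with a mean of at least 10 RPKM, whereas the genes of the lists were counted without this minimum in both series. Some called genes of low level lay under it. Of 11 listed genes for eIF2, eIF2B and their partners, 0 were 2-fold higher in any deficiency without CHX and 0, 0 and 3 were 2-fold lower in Arg-, Leu- and Met-, with median log2 ratios of -0.48, -0.22 and -0.34. The 3 were EIF2S1 and, named after their values were seen, BZW1 (-1.46), a mimic of eIF5, and CDC123 (-1.23), which helps to assemble eIF2. EIF2S1, the alpha subunit that the kinases phosphorylate, had a level of 197 RPKM in Suff, 128 in Arg-, 168 in Leu- and 92.3 in Met- without CHX. In the CHX series it was at 38.9 RPKM in Suff, 162 in Arg- and 212 in Leu-, and below 126 RPKM in Met-, where it was not listed. Relative to Suff it was thus lower in both Arg- (0.65-fold, 0.55 to 0.77) and Leu- (0.86-fold, 0.73 to 0.998) without CHX, and higher in both with CHX (4.16-fold, 3.36 to 5.22, and 5.47-fold, 4.43 to 6.81). The series listed different transcripts of EIF2S1, and as for PPP1CB the Suff library with CHX was the low one.

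Of 13 activators, partners and inhibitors of the kinases, none was past 2-fold in Arg- or Leu- without CHX, and 3 were higher in Met-. TARBP2, an RNA-binding protein that restrains EIF2AK2, was at 36.7 RPKM in Suff, 36.1 in Arg-, 34.0 in Leu- and 82.3 in Met- without CHX, and its Met- ratio was past 2-fold in both series (log2 ratios of 1.14 without CHX and 1.48 with it), a call lost in both on centring (0.83 and 0.60). With CHX its level was 74.3 RPKM in Suff, 39.3 in Arg-, 61.9 in Leu- and 209.8 in Met-. The others, named after their values were seen, were ADAR (1.10), which edits double-stranded RNA, and the adaptor NCK1 (1.26). GCN1, which EIF2AK4 needs for its activation and IMPACT binds, was at 16.3 RPKM in Suff, 14.5 in Arg-, 12.3 in Leu- and 14.3 in Met- without CHX. Its fold over Suff was 0.89 (0.75 to 1.06), 0.75 (0.62 to 0.91) and 0.88 (0.72 to 1.06). With CHX GCN1 was at 4.97 RPKM in Suff, 6.03 in Arg-, 4.25 in Leu- and 16.0 in Met-.

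Other mRNAs known for uORF control under eIF2 phosphorylation were largely higher without CHX, with 6, 5 and 7 of 10 at least 2-fold above Suff in Arg-, Leu- and Met-, 0 lower, and median log2 ratios of 1.16, 1.05 and 1.36. ATF4, the transcription factor of the integrated stress response, was at 251 RPKM in Suff, 700.2 in Arg-, 1098 in Leu- and 662 in Met- without CHX. With CHX it was at 76.0 RPKM in Suff, 157 in Arg-, 342 in Leu- and 251 in Met-, so that it was past 2-fold in all 6 comparisons, though on centring not in Met- with CHX (0.82), and highest in Leu- in both series. DDIT3 (CHOP), which activates the PPP1R15A gene, was at 4.40 RPKM in Suff, 101 in Arg-, 109.6 in Leu- and 26.5 in Met- without CHX. Its folds over Suff were 22.9 (11.2 to 54.6), 24.9 (12.1 to 59.4) and 6.03 (2.54 to 15.8), on 8 reads in Suff. Named after their values were seen, ATF5 (1.21, 1.13 and 1.65) and IBTK (1.35, 1.63 and 1.26) were past 2-fold in all 3 deficiencies without CHX and SLC35A4 (1.56) in Met-. The calls of ATF5 in Leu- and of IBTK in Met- were lost on centring. ATF5 and SLC35A4 had only 12 and 16 reads in Suff. EPRS1, a tRNA synthetase, was past 2-fold in both series in Arg- and Met-, and IFRD1 in Arg-, and the call of EPRS1 in Met- with CHX was lost on centring (0.39).

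Targets of ATF4 and CHOP showed the most calls of the lists, 10, 10 and 8 of 11 at least 2-fold above Suff in Arg-, Leu- and Met- without CHX and 0 below, with median log2 ratios of 2.41, 2.12 and 1.67. ASNS, asparagine synthetase, was at 68.0 RPKM in Suff, 689 in Arg-, 607 in Leu- and 392 in Met-. ASNS, SESN2, DDIT4 and STC2 were past 2-fold in all 3 deficiencies in both series, ATF3 and TRIB3 in Arg- and Leu-, CEBPB in Leu- and Met- and HERPUD1 in Arg-. The log2 ratios of PPP1R15A (2.96, 2.13 and 2.45) lay above the medians of this list in Arg- and Met-. In Leu- the ratio of PPP1R15A was level with the median (2.13 beside 2.12).

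Other regulatory subunits of PP1 showed fewer calls, with 1, 1 and 4 of 22 at least 2-fold above Suff in Arg-, Leu- and Met- without CHX, 0 below, and median log2 ratios of -0.03, 0.12 and 0.35. Named after their values were seen, these were PPP1R13B in Arg- (1.13), PPP1R37 in Leu- (1.06), and PPP1R13B (1.64), PPP1R10 (1.42), RIF1 (1.27) and PPP1R12A (1.10) in Met-. Of the 6 other factors that bind or recycle eIF2 or ribosomes, 0 were past 2-fold in either direction without CHX, with median log2 ratios of 0.32, 0.14 and 0.11.

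With CHX fewer genes of these lists had a ratio to Suff, and the shares of all genes past 2-fold upward were 16.6%, 12.1% and 46.7% in Arg-, Leu- and Met-. The shares past 2-fold downward were 19.7%, 7.28% and 9.79%. Of the ATF4 and CHOP targets 7 of 9, 7 of 9 and 5 of 5 were higher, and of the uORF mRNAs 4 of 5, 2 of 5 and 2 of 2, with 0 lower in either list. In Met- with CHX a gene low in Suff had a ratio only where it was high in Met-, as described above. ASNS, SESN2, STC2, EPRS1, GCN1 and PPP1R12C were so low in Suff that any listing in Met- meant a call of higher. The Met- counts of the lists in this paragraph, and the share of 46.7%, were thus set in part by this selection. They do not show how many genes of a list were higher. For eIF2, eIF2B and partners 3 of 11, 2 of 11 and 0 of 3 were higher, which besides EIF2S1 were, named after their values were seen, the eIF2B subunits EIF2B3 (1.60) and EIF2B4 (1.15) in Arg- and BZW2 (1.39) in Leu-. Of the kinase partners 5 of 12, 2 of 12 and 2 of 4 were higher and 1, 0 and 0 lower, and the chaperone HSP90AB1 had the largest of these ratios in Arg- (2.34, beside 0.24 without CHX). The other partners past 2-fold in Arg-, also named after their values were seen, were DRG1 (1.24), ADAR (1.19), HSPA5 (1.06) and DELE1 (1.03) upward and RWDD1 (-1.21) downward, and DRG1 (1.12) and HSP90AB1 (1.23) were those in Leu-. Other PP1 subunits were higher in 1 of 14, 0 of 14 and 4 of 5 cases and lower in 2, 0 and 0, namely RIF1 (1.02) higher and PPP1R14B (-1.45) and PPP1R11 (-1.31) lower in Arg-, and PPP1R12C (2.37), RRP1B (1.63), AKAP1 (1.43) and PPP1R8 (1.32) higher in Met-. Of the recycling factors 2 of 6 and 1 of 6 were higher in Arg- and Leu-, 1 of 6 was lower in Arg-, and none had a ratio in Met-; ABCE1, which splits ribosomes, was higher in both (1.80 and 1.22), EIF5B, which joins the subunits, in Arg- (1.53), and DENR was the lower one (-1.46).

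**Figure D5:**
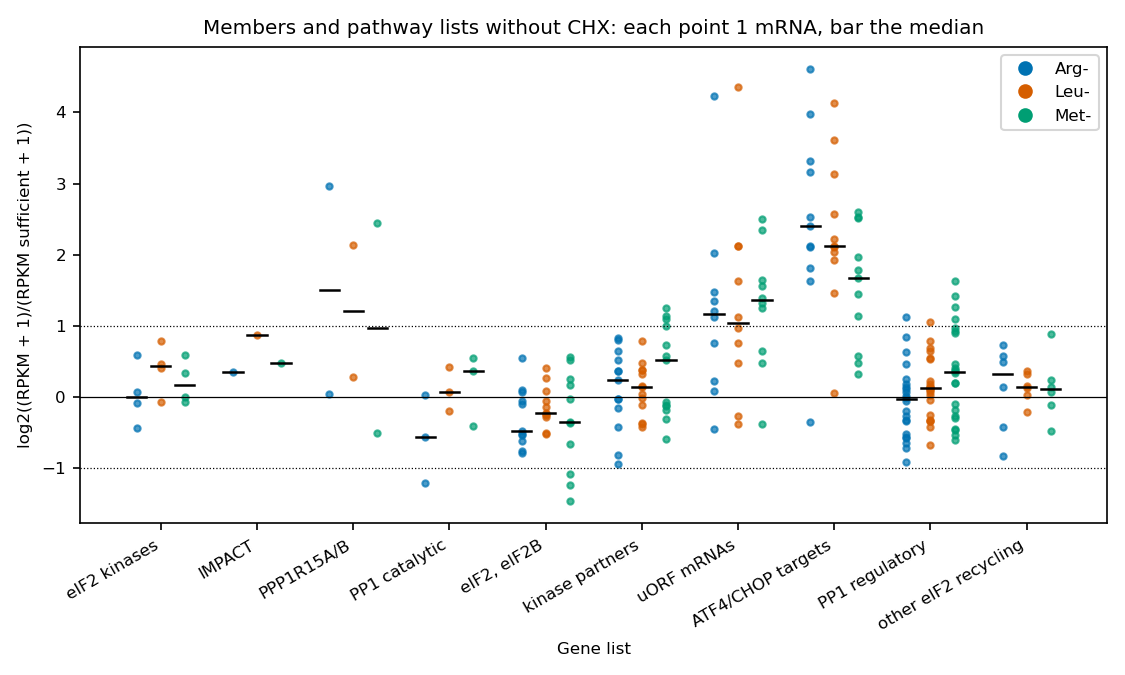
Log2 ratio to Suff without CHX of the members and of the pathway lists in Arg-, Leu- and Met-. Each point is 1 mRNA, black bars are medians and dotted lines mark 2-fold; the ATF4 and CHOP targets have medians of 2.41, 2.12 and 1.67, and the kinases have medians of 0.00, 0.44 and 0.17.

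The genes most like PPP1R15A were sought over the 3 comparisons without CHX, which share the Suff library, among 7181 genes with a mean of at least 10 RPKM in each, by the root mean square difference of log2 ratios. The nearest were the amino acid transporter SLC1A4 (0.27), the gene ENSG00000285976 (0.30), the tRNA synthetase CARS1 (0.46), the collagen receptor DDR2 (0.46) and the secreted protein STC2 (0.50). SLC1A4 had log2 ratios of 2.66, 2.48 and 2.52 in Arg-, Leu- and Met-, with Leu- lowest as for PPP1R15A but a smaller range. Those most like PPP1R15B, over 5 comparisons and 4695 genes, were BCKDHB (0.10), FECH (0.11), LACTB2 (0.11), CTNNAL1 (0.14) and C11orf58 (0.15).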

How the data were processed

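The authors deposited RPKM values per Ensembl transcript, made from footprints of 25 to 35 nt that were quality-trimmed with Trimmomatic and aligned uniquely, with no mismatch, to the human transcriptome. The submitters' processing notes name cutadapt, Bowtie and GRCh38; the annotation release is not given in the sources used here, and removal of duplicate reads in the series without CHX is known only from how those files were named. Transcripts were matched to GENCODE release 44 (96.7% to 97.1% per library), and the highest transcript of each gene was used. Whole reads were recovered from RPKM and coding length for 97.2% to 97.4% of matched transcripts (tolerance 0.01 of a read). Read intervals are exact Poisson and ratio intervals exact binomial (Clopper-Pearson), at 95%; log2 ratios used a pseudocount of 1 RPKM, which understates changes of low mRNAs. Called means at least 2-fold. With 1 library per condition no test was run; a fit over both series, with their difference as error, was not made, since they differ in treatment and processing and only 4 of 10 members were listed in all 8 libraries. RPKM is relative to each library and holds no total amount.

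The members and lists were chosen with earlier results of these data known. Named were all members, list genes at least 2-fold the same way in both series, EIF2S1, GCN1, ATF4 and DDIT3, and the 5 genes nearest to PPP1R15A and PPP1R15B. Alternatives were a pseudocount of 0.1, summed transcripts, 1 transcript per pair, centring, mRNAs not listed counted as 0, recovered reads, and a minimum of 50 RPKM or none. The scripts were tested on simulated data. The versions were Biopython 1.88, matplotlib 3.10.9, scipy 1.17.1, pandas 2.3.3 and numpy 2.4.6, under Python 3.11.15. Protein sequences were not used here. A check of markers of other cell types is not reported here.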

Additional observations from a re-analysis of the deposited data

Results flagged for a closer look

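The ratios to Suff of PPP1CC and EIF2S1 lay on opposite sides of 1 in the series with and without CHX. For PPP1CC in Met- the log2 ratio was -2.04 with CHX and 0.36 without it. The value with CHX rests on 64 reads, the fewest that this library lists. For EIF2S1 in Arg- the log2 ratio was 2.03 with CHX and -0.61 without it, and in Leu- it was 2.42 with CHX and -0.22 without it. The difference between the series was not tested in any of these, and the drug cannot be told apart from the processing, which also differed between the series.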

How the results depend on the processing

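Counting mRNAs that a library does not list as 0 moved the member counts with CHX. Members at least 2-fold higher became 4 in Arg- and 4 in Leu- (1 in each before), and members at least 2-fold lower in Met- became 4 (1 before). In the same setting PPP1R15B minus the kinase median became -1.42 in Arg- and -1.28 in Leu- with CHX. The Suff and Met- libraries with CHX do not list 3 and 6 of the members, and of the added calls EIF2AK2 in Arg- was also past 2-fold by its bound (at least 2.56-fold). Of 48 member ratios, 14 moved beyond their counting interval on centring and 0 under the other 5 settings. Of these 5, only the pseudocount of 0.1 and the recovered reads could have moved them. Both libraries of each ratio listed the member through the same single transcript, so the settings on transcripts and on unlisted mRNAs left the ratio as it was. The 6 that changed sign on centring are given beside their values. The difference between PPP1R15A and the kinase median without CHX stayed within its counting interval in 3 of 3 deficiencies under the 5 settings run on it. Only the pseudocount of 0.1 could have moved it. Centring shifts PPP1R15A and the kinases alike, and all members were listed without CHX through a single transcript each, so the remaining settings left the difference as it was. Over all genes, percentages called moved by more than 1.5 times in 7 of 12 cases on centring, 4 of 12 with unlisted mRNAs as 0 (lower in Met- with CHX became 61.9%, and higher 21.0%; higher in Arg- and Leu- with CHX became 29.7% and 26.3%), 3 of 12 with a minimum of 50 RPKM and 0 of 12 with no minimum. On centring they became 12.4% lower in Arg-, and 20.8% higher and 23.0% lower in Met-, with CHX, and 4.47% higher and 3.44% lower in Leu-, and 10.7% higher and 10.7% lower in Met-, without it. At 50 RPKM they became 4.53% higher in Leu-, and 11.1% higher and 8.56% lower in Met-, without CHX.

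Centring the pathway lists, an alternative chosen after seeing the data, took the kinase partners higher in Met- without CHX from 3 to 0. It took the PP1 subunits there from 4 to 2, the uORF mRNAs from 7 to 6 and the ATF4 and CHOP targets from 8 to 7. In Leu- without CHX it took the uORF mRNAs from 5 to 4 and the PP1 subunits from 1 to 0. With CHX in Met- it took the uORF mRNAs from 2 to 0, the kinase partners from 2 to 0 and the PP1 subunits from 4 to 1. In Arg- with CHX it took eIF2, eIF2B and partners from 3 to 6.

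No paired analysis was run: the libraries carry no shared replicate numbers, and the series with and without CHX differ in treatment and processing. No replicate could be left out, as each condition had 1 library. Depth limits EIF2AK3, on 26 to 38 reads without CHX, and the folds of PPP1R15A, on 20 reads in Suff. With CHX the listing from 64 reads hid 6 members in Met-.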

Other observations

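The members differ in how often their coding sequences call for the amino acids that were withdrawn. Codons for methionine make up 0.445% of the 674 codons of PPP1R15A and 0.842% of the 713 codons of PPP1R15B, and 1.63% to 2.24% in the other 8 members. PPP1R15A also has the lowest share of leucine codons, at 6.38%, against 8.44% to 12.2% in the others, and the highest share of arginine codons, at 6.97%, against 4.38% to 6.42%. No relation of these shares to the ratios was tested.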
